A study of Homo sapiens with 11 samples.

Results

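The CTCF summits called in WT cells were compared with those called in cells that lack ORC2. A summit is the base at which a called peak is highest. Both lists were taken whole, the 19044 WT summits and the 31112 summits of the ORC2 deletion cells, which together are 50156 of the 71050 summits in the study's 6 summit lists. A summit was called matched when the other list had one within 500 bp on the same chromosome, and otherwise WT-only or deletion-only.

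The cells are HCT116 p53-/-, a human colorectal cancer line without p53, so both genotypes lack p53. WT names this parental line. The ORC2 deletion cells are 1 clone made from it with CRISPR/Cas9, so what belongs to the clone and what belongs to the loss of ORC2 cannot be told apart. Sites were mapped by CUT&RUN, in which a nuclease is brought to a bound protein by its antibody and cuts out the DNA beneath. Each genotype had 2 libraries with an antibody to CTCF and 2 with IgG as the background, and each pair is represented by 1 list. The deposited lists therefore carry no spread between replicates, no depth and no expression, and the cell type could not be checked against marker genes. Every interval below is a 95% Wilson interval on a share of summits and covers counting error only. No difference below has a replicate check.

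CTCF is a zinc finger protein that binds a long DNA motif and stops the cohesin ring as it extrudes chromatin loops. Its sites mark loop anchors and domain borders, and many lie at promoters. ORC2 is a subunit of the origin recognition complex, which marks the places where DNA replication may start.

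The motif core CCANNAGNNGGC, in which N is any base, was looked for on both strands of RefSeq promoter windows (GRCh38.p14). These windows run from 250 bases before to 50 after a transcription start. The sequences that follow show the core, in capitals, with 9 bases on each side, at the highest-ranked summits of each class that share a window with it. They are read 5′ to 3′ on the strand of the core.

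At matched summits the core stood in the windows of TMEM192 (chr4:165112842-165112871, minus strand), DMKN (chr19:35510545-35510574, plus), ANKRD6 (chr6:89432984-89433013, plus) and PIGC (chr1:172444141-172444170, minus).
TMEM192: tggcaggtcCCAGAAGGTGGCgagtttcgc
DMKN: gcgatcctgCCACCAGGGGGCagcaagtgg
ANKRD6: tggccccacCCAGGAGAGGGCtgcagatcg
PIGC: ttcgagcagCCAGGAGGGGGCagcagtcac

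At WT-only summits it stood in those of INSIG2 (chr2:118088511-118088540, plus), WWC1 (chr5:168291539-168291568, plus), MGST3 (chr1:165631184-165631213, minus) and RPS4X (chrX:72277320-72277349, minus).
INSIG2: gggctggtcCCAGAAGATGGCggaggcggg
WWC1: gggactgtcCCACGAGGGGGCgcgtctcgg
MGST3: tagatgaggCCAGAAGCAGGCcccgcccca
RPS4X: gacctcccaCCAGCAGATGGCaagaaagag

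At deletion-only summits it stood in those of PCDHB9 (chr5:141187070-141187099, plus), ENDOG (chr9:128818369-128818398, plus), ZNF607 (chr19:37719838-37719867, plus) and CPT2 (chr1:53196712-53196741, minus).
PCDHB9: tgttggaagCCACAAGGTGGCgctgcagac
ENDOG: accccacgaCCAGCAGGGGGCctgcgaggc
ZNF607: ttcttagggCCAGTAGGAGGCgagtctgag
CPT2: aggccccgcCCACTAGTAGGCcccgcccgg

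Of all 34789 promoter windows, 2.42% held the core (2.26 to 2.59). Of windows with a matched WT summit 13.9% did (11.7 to 16.5), and of windows with a matched deletion summit 12.9% (10.7 to 15.4). The share was 4.95% of the 202 windows with a WT-only summit (2.71 to 8.87) and 4.24% of the 755 with a deletion-only summit (3.02 to 5.92). Windows with no summit in either list held it in 2.03% (1.88 to 2.19). Summits found in 1 list thus had the core near them less often than matched summits by intervals that do not overlap, and the intervals of the WT-only and deletion-only windows overlapped. With lists of equal length the core was in 15.9% of windows with a matched WT summit (13.3 to 19.0), 6.09% with a WT-only summit (4.13 to 8.90) and 7.07% with a deletion-only summit (4.26 to 11.5). A looser core, with 1 more free base, was in 33.8% of windows with a matched WT summit (30.6 to 37.1), 19.8% with a WT-only summit (14.9 to 25.8), 32.3% with a matched deletion summit (29.1 to 35.7), 17.2% with a deletion-only summit (14.7 to 20.1) and 10.6% of all windows. Matched summits are of higher rank, and the windows were not compared at equal rank. A match says that these letters are in the window, and no match says only that they are not.

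The distance from summit to core was also taken for matched pairs near a core of a promoter window. Summits of a pair lie within 500 bp of each other and were taken with a core within 300 bp, so large differences could not arise. In 137 matched pairs with a core within 300 bp, the median distance from its centre was 114 bp in WT (quartiles 65 and 162) and 121 bp in ORC2 deletion (89 and 163). The deletion summit was nearer in 69 pairs and the WT summit in 68. At WWC1, a regulator of Hippo signalling, the WT-only summit lay 3 bp from the centre of the core, and the nearest deletion summit was 10558 bp from the WT summit. At ENDOG, a mitochondrial nuclease, the deletion-only summit lay 8 bp from it, with the nearest WT summit 45256 bp off. INSIG2, which holds back the synthesis of cholesterol, had a WT-only summit at rank 8913 and a deletion summit 930 bp from it at rank 3203.

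The targeted gene itself, ORC2 (chromosome 2, 200908977 to 200963660, hg38), held 1 WT and 4 deletion CTCF summits, of which 3 were deletion-only. The IgG lists held 0 summits there in WT and 2 in ORC2 deletion. Peak lists alone cannot tell what was deleted.

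Most WT sites were found again in the cells without ORC2. Matched summits numbered 17049 in WT and 17055 in ORC2 deletion, nearly all of them in 17034 pairs of mutually nearest summits. With matching by such pairs the longer list must have the lower matched share. The lower share in ORC2 deletion is therefore no finding apart from list length. WT-only summits numbered 1995, which is 10.5% of the WT list, and deletion-only summits 14057, which is 45.2% of a list 1.63 times as long. With both lists at 19044 summits, the highest-ranked deletion summits being kept, 4815 were WT-only and 4827 deletion-only, 25.3% of each list. Matching by pairs makes these counts nearly equal when the lists are equally long, so their likeness says nothing about the genotypes. Of those 4815 WT summits, 2820 had a deletion summit further down the full list, at a median rank of 23042 of 31112. The other 1995 had none at any rank. Among the 12068 deletion summits below the equal length, 9230 were deletion-only.

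Rank within a list is by the authors' −log10 q of each peak, highest first, and is compared only within that list. Each list was divided by rank into 10 classes of equal size. In WT, 99.2% of the summits of the highest rank class were matched (98.7 to 99.5), against 55.3% of the lowest (53.1 to 57.5). In ORC2 deletion the share went from 97% (96.3 to 97.5) in the highest to 11.6% (10.5 to 12.7) in the lowest class. With equal lengths the lowest class was matched for 28.3% of WT summits (26.3 to 30.4) and for 44.2% of deletion summits (42.0 to 46.5). Both lists thus lost matches step by step towards their weak end, and the equally long deletion list ended at a −log10 q of 6.42 where the WT list went down to 1.31. Of the WT-only summits 88.8% lay below the median rank of their list (87.3 to 90.1), and of the deletion-only summits 78.6% (77.9 to 79.2).

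**Figure D1:**
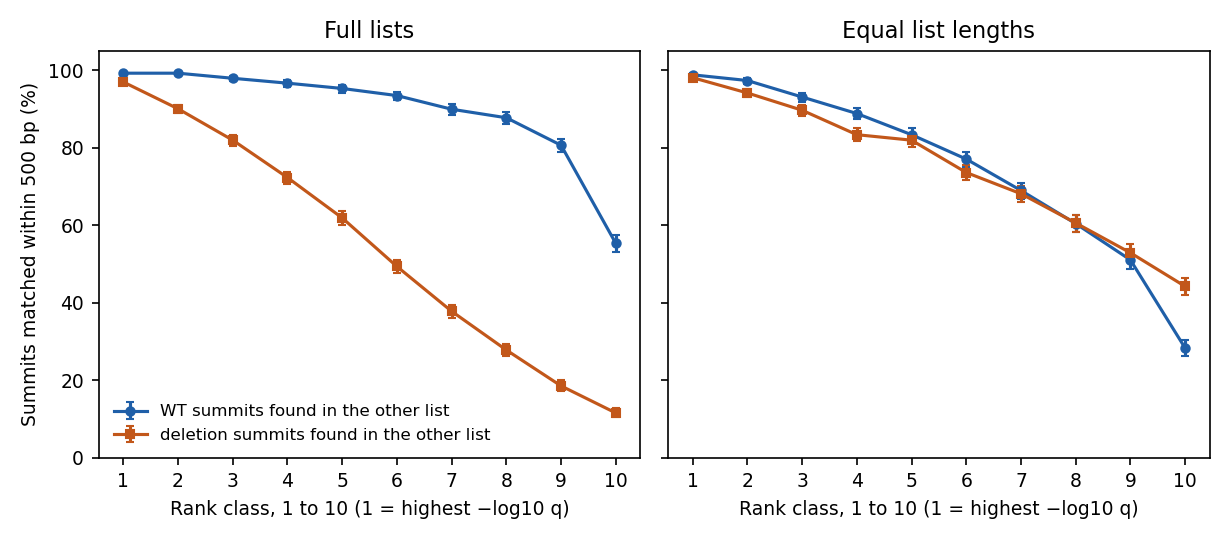
Share of CTCF summits with a summit of the other genotype within 500 bp (y axis, percent) by rank class of each list (x axis, 1 is the highest of 10), for WT (circles) and ORC2 deletion (squares), with full lists on the left and equal lengths on the right; bars are 95% Wilson intervals. In the full lists the WT curve falls from 99.2% to 55.3% and the deletion curve from 97% to 11.6%.

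Strong sites of one genotype were seldom missing from the other, but the strongest sites were not the same. Among the 1000 highest-ranked summits, 6 were WT-only and 10 deletion-only. Among the first 5000 these counts were 49 and 267. With equal lengths they were 10 and 10 among the first 1000, and 143 and 267 among the first 5000. Yet only 62% of the first 1000 WT summits (59.0 to 65.0) had a summit among the first 1000 of the deletion list, although 99.4% of them had one somewhere in it. The shared part was 66.2% for the first 500, 58.5% for the first 2000 and 68.7% for the first 10000.

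The matched summits formed 17034 pairs of mutually nearest summits. Ranks of the pairs were related with a Spearman rho of 0.63, and 0.58 over the 14217 pairs of equal lists. This is a description across sites that share the same libraries, and it has no p. With equal lists, 21.6% of the pairs fell in the same rank class of both lists, 48.9% within 1 class, and 9.69% lay 5 or more classes apart. The summits of a pair were 61 bp apart at the median (quartiles 25 and 123), and 164 pairs fell on the same base. Strong pairs were placed more alike, with a median of 36 bp in the highest WT class and 102 bp in the lowest.

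**Figure D2:**
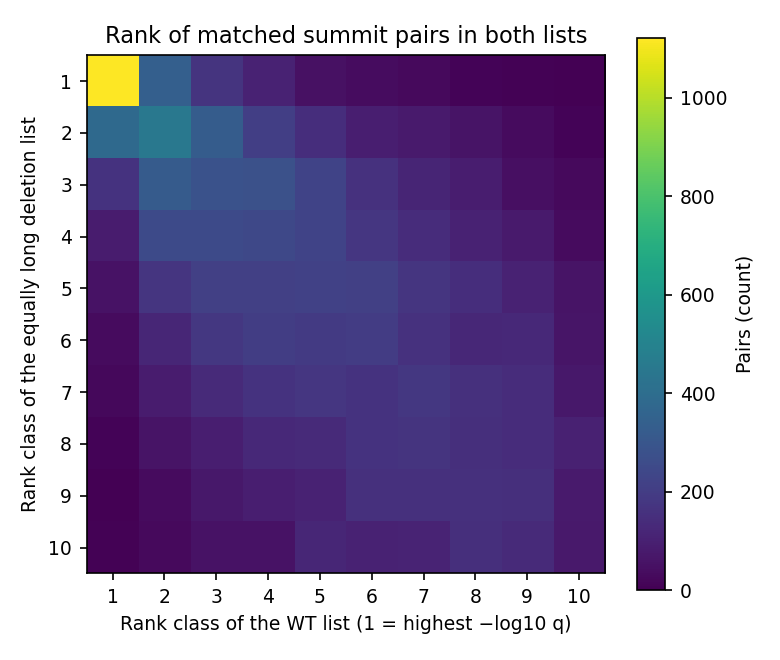
Number of matched summit pairs (colour, count) by rank class of the WT list (x axis) and of the equally long ORC2 deletion list (y axis), with class 1 the highest of 10. The cell of both highest classes holds 1120 of the 14217 pairs, and the counts spread widely around the diagonal in the lower classes.

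The pairs with the best ranks in both lists lay at genes of different kinds. Among pairs with a named protein-coding gene within 50 kb, the first by the sum of ranks was inside PDZD7, a scaffold protein of hair cell stereocilia (chromosome 10), at rank 2 in WT and 3 in ORC2 deletion, with summits 8 bp apart. FGD2, an exchange factor for CDC42, followed at ranks 5 and 4, and GABRR3, a subunit of a GABA receptor, at ranks 4 and 8. At USP10, a deubiquitinase, both summits had rank 7 and lay 2 bp apart. CACNB4, a calcium channel subunit, stood at ranks 6 and 11. IGF2BP1, an mRNA-binding protein, stood at 12 and 13, DNASE1L3, a secreted nuclease, at 11 and 16, and TMEM87B, a Golgi membrane protein, at 21 and 9. Of the 20 best pairs, 5 lay within 1 kb of an IgG summit and their part in the ranking was not tested. None of these 8 genes' pairs did so.

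Some sites were present in both genotypes at very different ranks. In the 12344 pairs of the equal lists with a named protein-coding gene within 50 kb, the rank differed by a median of 2900 places, and in 640 pairs by more than 10000. Of those 640 pairs 364 stood higher in WT and 276 higher in ORC2 deletion. The pairs that stood highest in WT over deletion were led by RARRES1, a gene induced by retinoic acid, at rank 1394 in WT and 19017 in ORC2 deletion. The summit near TBC1D7-LOC100130357 had ranks 339 and 17203. Next came CST2, a salivary cystatin (1542 and 18226), NIPAL3 (1681 and 18316), EIF1, a translation initiation factor (1053 and 17595), and ABCA8, a membrane transporter (2160 and 18542). In the other direction MARCHF10, a ubiquitin ligase, had rank 18590 in WT and 2301 in ORC2 deletion, with summits 2 bp apart. RFX2, a transcription factor of ciliated cells, had ranks 18669 and 2463. PLIN1, a lipid droplet protein, stood at 18306 and 2398, and KCNMA1, a potassium channel, at 17202 and 1784. These pairs were picked for their rank difference, so the values describe them and test nothing.

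Most of the highest-ranked deletion-only summits had no WT summit within 2 kb, which also holds for deletion-only summits of all ranks. Of the 12 highest-ranked with a named protein-coding gene within 50 kb, 8 lay inside a protein-coding gene and 10 were more than 2 kb from any WT summit. Of all deletion-only summits, those far from genes included, 51.2% lay inside such a gene, and 4.23% had a WT summit within 2 kb. The first was inside RHOBTB2, an atypical small GTPase (chromosome 8), at rank 332 (−log10 q 49.5), 64630 bp from the nearest WT summit. CYP2J2, an epoxygenase of arachidonic acid, had one at rank 537 and 23768 bp. CACNA1C, the pore subunit of a calcium channel, had one at rank 621 and 34658 bp, and ABTB3 one at rank 773 and 14510 bp. A pair of them stood at transcription starts, that of EXD1 (rank 781, 137 bp upstream) and that of EEF1A1, a translation elongation factor (rank 860, 112 bp upstream). Inside KYNU, an enzyme of tryptophan breakdown, GNA11, a G protein subunit, CNIH3, which associates with AMPA receptors, and SLC9A8, a sodium-proton exchanger, they had ranks 959, 1038, 1049 and 1261. Their nearest WT summits were 8513, 4591, 21782 and 40540 bp away, in the same order. The remaining 2 lay just outside the matching distance, 621 bp from a WT summit at SLC8A2, a sodium-calcium exchanger, and 566 bp at ZDHHC22.

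Among the 12 highest-ranked WT-only summits named in the same way, 6 had a deletion summit within 2 kb, and 4 within 1 kb. These 4 were at LIPA, lysosomal acid lipase (516 bp), FOSB, a subunit of AP-1 (632 bp), ACER3, a ceramidase (715 bp), and BASP1 (763 bp). The deletion summit near BASP1 stood at rank 297 of its list. PARD3, a cell polarity protein, and LBX1, a homeobox factor, had one at 1150 and 1130 bp. The 6 without one were at CDKAL1, a tRNA-modifying enzyme (rank 202, −log10 q 36.5, the highest of all), PHACTR3 (rank 368), RPP40, a subunit of RNase P (963), CELF4, an RNA-binding protein (1185), F13A1, a coagulation factor subunit (1509), and TRIM38, a ubiquitin ligase (1525). CDKAL1, RPP40, F13A1 and TRIM38 are all on chromosome 6. At F13A1 the nearest deletion summit was 231472 bp away, and at CELF4 153859 bp.

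Over all ranks, few summits had their nearest counterpart just beyond the matching distance. Between 400 and 500 bp lay 62 WT and 67 deletion summits, and between 500 and 600 bp 38 and 50. Deletion-only summits had their nearest WT summit at a median of 32420 bp (quartiles 12102 and 78438), with 4.23% within 2 kb, 78.7% beyond 10 kb and 69 summits beyond 1 Mb. WT-only summits had their nearest deletion summit at 22499 bp (7096 and 63864), with 11.4% within 2 kb. In the 2 highest rank classes, 17 of 30 WT-only summits had a deletion summit within 2 kb, against 31 of 405 deletion-only summits with a WT summit there. At equal lengths these counts were 21 of 74 and 8 of 149. With equal lengths the medians were 30969 bp for deletion-only and 34055 bp for WT-only summits, so the order of the medians was the opposite at equal lengths.

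**Figure D3:**
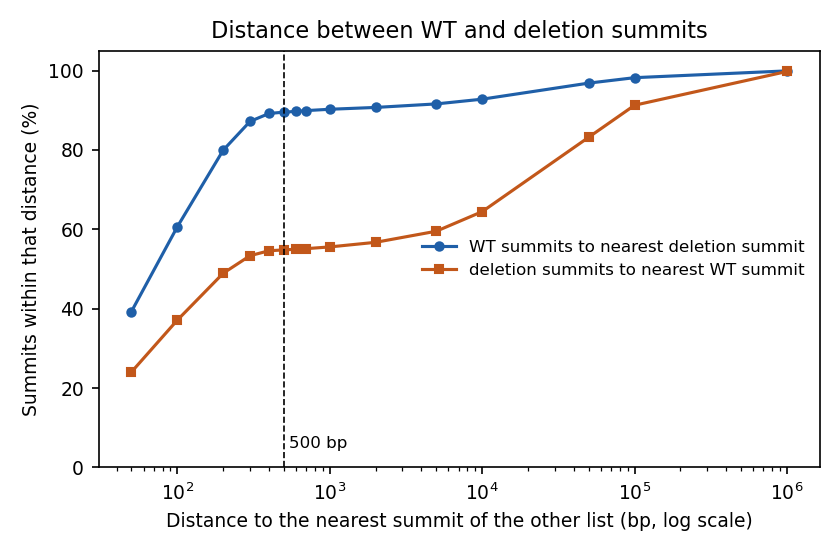
Share of summits (y axis, percent) with a summit of the other genotype within the distance on the x axis (bp, log scale), for WT (circles) and ORC2 deletion summits (squares) of the full lists. Both curves are flat around the dashed line at 500 bp, and deletion-only summits find a WT summit mostly between 10 kb and 100 kb.

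Neighbouring summits of the same list were 26744 bp apart in WT at the median, 17072 bp in the full deletion list and 26035 bp in the equally long one. Deletion-only summits had their nearest matched deletion summit at a median of 36212 bp. Lines of deletion-only summits with no WT or matched summit between them numbered 7863. Of these, 4477 were single summits and 313 had 5 or more. In the WT list 1679 of 1826 such lines were single and 1 had 5. With equal lengths 33 WT lines and 15 deletion lines had 5 or more, so the excess of long lines in ORC2 deletion was not found at equal length.

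The longest line held 14 deletion-only summits over 772 kb of chromosome 7 (127392449 to 128164541). It spans ZNF800, GCC1, a Golgi protein, FSCN3, PAX4, a transcription factor of islet cells, and SND1. Its best summit had rank 7868 and its median rank was 20660.5. Of 3 lines of 11, one on chromosome 18 spans ZNF407 and SMIM21. The second, on chromosome 2, spans RGPD4, SULT1C3 and SULT1C4, which are sulfotransferases, and LIMS1. The third, on chromosome 11, spans NTM, OPCML, SPATA19 and IGSF9B. At equal length the longest deletion line was of 8 summits at CDH20, a cadherin (chromosome 18), with its best at rank 1497. The longest WT line there was of 9 summits over 1404 kb of chromosome 6, at LYRM4, FARS2, NRN1, F13A1 and LY86.

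WT-only summits lay at transcription starts more often than matched WT summits. Within 1 kb of a start were 19% of WT-only summits (17.3 to 20.8), against 11.6% of matched WT summits (11.1 to 12.1) and 11.4% of matched ones at the ranks of the WT-only summits. For deletion-only summits the share was 12% (11.5 to 12.6), against 11.5% of matched deletion summits (11 to 12) and 14.6% of matched ones at the same ranks. Weak matched deletion summits came close to the WT-only share, with 20.3% (17.2 to 23.9) in rank class 9 and 17.7% (14.0 to 22.1) in class 10. With equal lengths 16.9% of WT-only (15.9 to 18.0), 8.71% of deletion-only (7.93 to 9.56) and 10.6% of matched deletion summits were near a start. Deletion-only summits were therefore above or below matched ones depending on list length and rank, whereas WT-only summits stood above matched deletion summits in all 8 settings run. With −log10 q of at least 10 the WT-only share was 13.5% (10.3 to 17.4), and its interval then included the 12.9% of matched deletion summits.

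**Figure D4:**
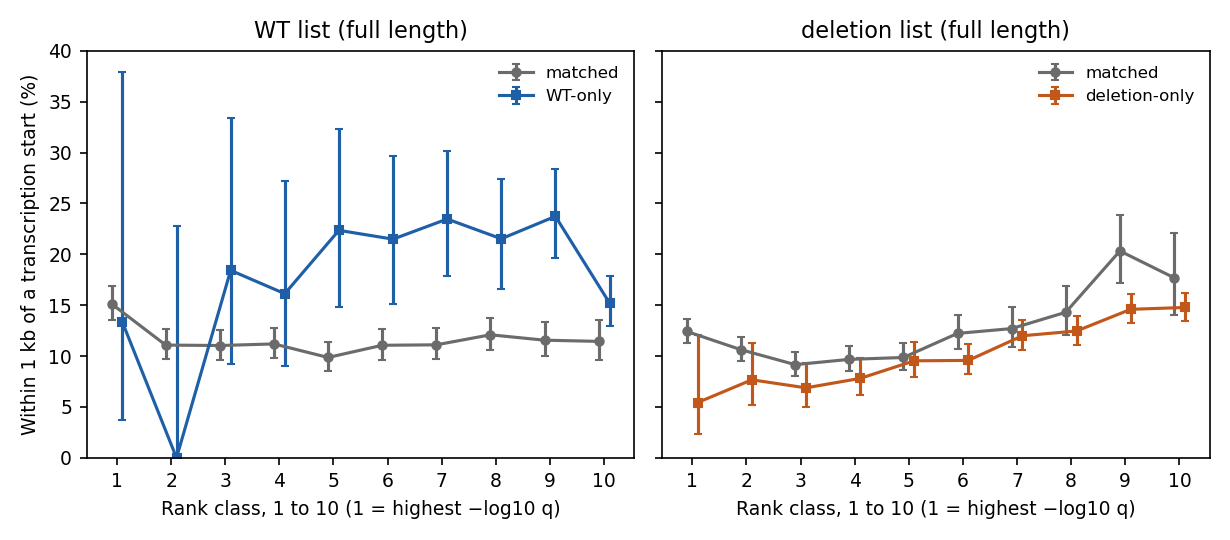
Share of summits within 1 kb of a transcription start (y axis, percent) by rank class (x axis, 1 is the highest of 10) in the WT list (left) and the ORC2 deletion list (right), for matched summits (grey circles) and summits of that list alone (coloured squares); bars are 95% Wilson intervals. WT-only shares are 15.2% to 23.7% from class 3 down, and deletion-only shares are 5.43% in the highest and 14.8% in the lowest class. Matched deletion shares are 20.3% in class 9 and 17.7% in class 10. The first 2 classes hold 15 and 13 WT-only summits.

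The difference was seen on both sides of the start. Within 1 kb upstream lay 10.6% of WT-only and 7.13% of matched WT summits, and within 1 kb downstream 8.45% and 4.43%. Within 250 bp of a start were 12% of WT-only summits (10.6 to 13.5) and 6.07% of matched ones (5.71 to 6.45). In genes, 1926 of the 15812 protein-coding genes with a start in the table had a WT summit within 1 kb of it and 2976 a deletion summit, and 1591 had both. In these full lists 335 genes had a WT summit alone and 1385 a deletion summit alone. With equal lengths 1181 genes had both, 745 a WT summit alone and 315 a deletion summit alone, so the order was the opposite. Equal lengths leave out the weak end of the deletion list, while the WT list keeps its own.

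Among starts of protein-coding genes, the highest-ranked WT-only summit was 767 bp upstream of CRYZ, a quinone oxidoreductase (rank 1863), with a deletion summit 572 bp from it. SNX2, a sorting nexin, had one at rank 4137, 70758 bp from the nearest deletion summit. KIAA0319L, CEP152, a centrosome protein, CNOT4, a subunit of the CCR4-NOT complex, and VKORC1, which recycles vitamin K, had one at ranks 4983, 5571, 5654 and 6337. After EXD1 and EEF1A1, the next deletion-only summits near such starts were at RGMB, a BMP co-receptor (rank 2870), ZNF555 (2916), ZNF808 (3208), NPR1, a natriuretic peptide receptor (3209), and KCNN3, a potassium channel (4390).

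Over whole gene bodies the classes differed less. Inside a protein-coding gene lay 48.3% of WT-only (46.1 to 50.5), 47% of matched WT and 51.2% of deletion-only summits (50.4 to 52.0). Farther than 50 kb from any such gene were 20.3% of WT-only (18.6 to 22.1), 16.6% of deletion-only (16.0 to 17.2) and 12.9% of matched summits in either list. At the ranks of the list's own summits, matched ones gave 15% in WT and 15.5% in ORC2 deletion. Compared with matched WT summits, WT-only summits were thus more frequent both at starts and in gene-poor stretches.

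The 7196 deletion-only summits inside protein-coding genes were spread over 4865 genes, of which 3434 held 1 and 89 held 5 or more. The genes were long, with a median of 106 kb against 24.2 kb for all protein-coding genes, but genes with matched deletion summits had a median of 97.3 kb. Each summit was given to the shortest gene holding it to find the genes with most, and the counts here are over the whole gene. KAZN, which codes for a desmosomal protein, held 7 WT and 19 deletion summits, 12 of them deletion-only. THSD4 held 9 and 20, with 12 deletion-only, and GPHN, the scaffold of inhibitory synapses, 11 and 27, with 16. ARHGAP26, a GTPase-activating protein, and GLIS3, a transcription factor, held 4 WT summits each and 15 deletion summits, 11 of them deletion-only. CACNA1C, GRIK4, a kainate receptor subunit, and ZFHX3, a transcription factor, had 9 deletion-only summits each. With equal lengths ARHGAP26 and GLIS3 were left with 1 deletion-only summit each, and THSD4 with 7.

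WT-only summits inside genes numbered 963 over 896 genes. DLGAP1, a postsynaptic scaffold, held most, 5 of its 16 WT summits, beside 12 deletion summits. ANK3, which codes for ankyrin-G, held 4 of 10. ANKS1B and TENM4, a teneurin, held 3 each. SORCS3, a sorting receptor, was the one of these 5 with no deletion summit at all, against 3 in WT, the best at rank 4060.

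By chromosome, WT-only summits were most frequent on X. There 88 of 419 WT summits were WT-only, 21% (17.4 to 25.2), against 10.5% over the genome. X also held weak summits, with a median WT rank of 13168 of 19044, and WT summits of those ranks were WT-only in 15.7% over all chromosomes. With equal lengths the X share was 47% (42.3 to 51.8), against 25.3% over the genome and 35.2% at its ranks, and X held 313 deletion summits, 0.747 times the WT number. All 10 bins of 10 Mb on X with 20 or more WT summits were above the median of 25.8% over 274 bins, at 35.1% to 62.2%. With −log10 q of at least 10 only 32 WT summits were left on X, 15.6% of them WT-only (6.86 to 31.8). Over the genome 370 of 4433 WT summits were WT-only in that setting, a share that the X interval includes. On chromosome 6 WT-only summits made up 14.4% of the full list, with an interval that left out the 10.5% at its ranks. On chromosome 18 they also made up 14.4%, but the interval included the 11.2% at its ranks. The interval of chromosome 13 included the share at its ranks as well. At equal lengths the intervals of chromosomes 6 and 13 lay above the shares at their ranks, and that of chromosome 18 included its own. The first 3 bins of chromosome 6, up to 30 Mb, had WT-only shares of 40.3%, 21.7% and 35.1% in the full lists. With equal lengths these were 67.2% (55.3 to 77.2), 55.1% (43.4 to 66.2) and 56.1% (43.3 to 68.2). The first was above the highest bin on X, at 62.2% (46.1 to 75.9), but the intervals overlapped. In the full lists that X bin had 43.2%, above the 40.3% of chromosome 6. CDKAL1, RPP40, F13A1 and TRIM38 all lie in the first 30 Mb of chromosome 6. Copy number was not measured, and its part in these shares was not tested.

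The gene lists were read against the 10.5% of all WT and 45.2% of all deletion summits that had no counterpart. Of 32 list shares in the full lists, 4 had an interval that left out these values, and 1 had an interval that left out the share at the ranks of its own summits. That 1 was zinc finger genes in WT, with 39 of 245 WT summits WT-only, 15.9% (11.9 to 21.0), against 10.5% at their ranks. ZNF397 (rank 5832) and ZSCAN21 (6753) led them. With equal lengths the share was 30.6% (25.2 to 36.6), whose interval includes the 25.3% of all summits. Their deletion-only share was 184 of 391, 47.1% (42.2 to 52.0), led by ZNF555, ZNF808 and ZNF608.

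Intestinal epithelium genes, of the lineage of this line, and ribosomal protein genes had deletion-only shares with intervals below the 45.2% of all deletion summits. Both intervals included the share at the ranks of the list's own summits. At equal lengths the shares were 10.5% (4.17 to 24.1) and 12.5% (6.19 to 23.6), with intervals below the 25.3% of all summits. The intestinal list had 14 of 53, 26.4% (16.4 to 39.6), with EPCAM, an epithelial adhesion protein (rank 7183), CDX1, an intestinal homeobox factor (9976), and CDH17, an intestinal cadherin (16746), first. At the ranks of those summits 36.1% is the value over all genes. Its 2 WT-only summits of 41 lay in CDH1, which codes for E-cadherin, 596 bp from a deletion summit, and near EPCAM. Ribosomal protein genes had 18 of 72, 25% (16.4 to 36.1), against 34% at their ranks, led by RPS19, RPL3 and RPS20. They had 8 of 63 WT-only, led by RPL15 and RPS23.

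Among genes of chromatin and replication, the polycomb list's WT share was the one with an interval below the background in the full lists. At equal lengths that share was 15.8% (7.44 to 30.4), whose interval includes the 25.3% of all summits. Polycomb and heterochromatin genes had 0 of 38 WT-only summits, with an upper limit of 9.18%, where 6.82% is the value at their ranks. Of their deletion summits 20 of 58 were deletion-only, at EED, a polycomb subunit (rank 4749), near CBX7 and in EZH1 first. Cohesin and loop factor genes had 5 of 32 WT-only, led by SMC4 and ESCO2, and 18 of 45 deletion-only, led by CDCA5, SMC3 and RAD21. At equal lengths 14 of their 32 WT summits were WT-only, 43.8% (28.2 to 60.7), an interval above the 25.3% of all summits. Replication licensing and firing genes had 2 of 18 WT-only, near TICRR and ORC5. Their deletion-only summits were 18 of 34, 52.9% (36.7 to 68.5), against 50.4% at their ranks. After ORC2 itself these were led by MCM5 and WDHD1. Imprinted genes had 22 of 36 deletion-only, 61.1% (44.9 to 75.2), against 52.7% at their ranks, with GNAS, KCNQ1 and L3MBTL1 first, and 2 of 16 WT-only, near CDKN1C and DLK1.

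**Figure D5:**
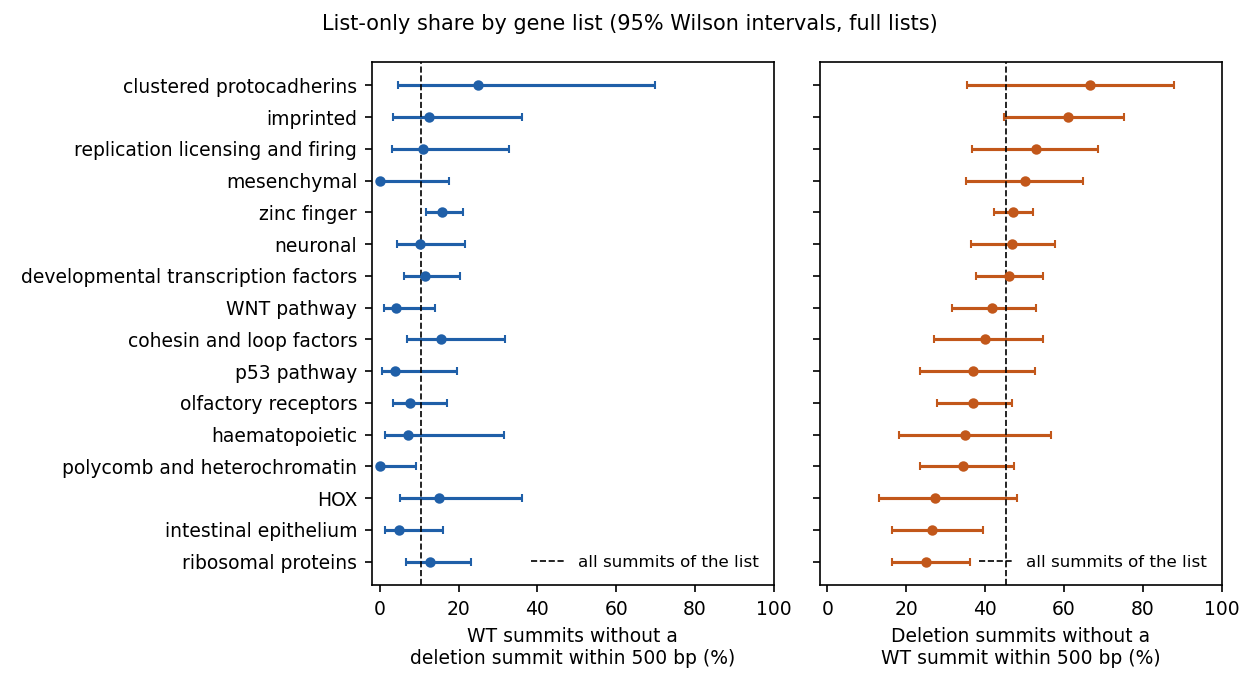
Share of summits without a counterpart within 500 bp (x axis, percent) at the genes of each list (y axis), for WT summits on the left and ORC2 deletion summits on the right, with 95% Wilson intervals; dashed lines mark 10.5% and 45.2%, the shares of all summits. Most intervals cross the dashed line, with zinc finger genes above it on the left and ribosomal protein and intestinal epithelium genes below it on the right.

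The intervals of signalling and developmental lists included the background. WNT pathway genes had 2 of 48 WT-only, near WNT11 and FZD6, and 33 of 79 deletion-only, at DVL1, WNT7B and WNT9A first. The p53 pathway had 1 of 25 WT-only, in ZMAT3, and 14 of 38 deletion-only, near ZMAT3 and in XPC and AEN first. Developmental transcription factors had 9 of 78 and 59 of 128, with SOX6 and LHX9 first in WT and EBF3 (rank 2137), SIX3 and PAX5 in ORC2 deletion. HOX genes had 3 of 20, at HOXC9 and HOXB8 first, and 6 of 22, led by HOXB3, HOXC9 and HOXC6. Clustered protocadherins had 1 of 4, in PCDHA9, and 6 of 9, led by PCDHB9, PCDHGA4 and PCDHGC5.

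For genes of other cell types the intervals also included it. Neuronal genes had 5 of 49 WT-only, led by DLG2 and NLGN1, and 38 of 81 deletion-only, led by GRIN2B, an NMDA receptor subunit (rank 2837), RBFOX3 and CAMK2A. Haematopoietic genes had 1 of 14, in PTPRC, and 7 of 20, at CD34, ITGAM and MPO first. Mesenchymal genes had 0 of 18, with an upper limit of 17.6%, and 20 of 40, at COL1A1, COL1A2 and FBN1 first. Olfactory receptor genes had 5 of 64, near OR2A7 and OR2T11, and 35 of 95, led by OR7E24, OR56A1 and OR2S2.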

How the data were processed

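CTCF CUT&RUN lists of WT and ORC2 deletion cells were compared, with the IgG lists beside them. Per the submitters' processing notes, FastQC 0.11.5, Bowtie2 2.2.9, SAMtools 1.12, MACS2 and the build hg38 were used. How peaks were called is not given in the sources used here. Deposited lists give a −log10 q for each summit, the authors' own value, unscaled between lists, at least 1.31 in both, and shared with another summit for 17570 WT and 27598 deletion summits. Ties were ordered by position, and 14 of 20 deletion summits tied at the equal length were kept. Each list was taken as the pool of 2 libraries. Depth is unknown.

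Summits were matched by distance, with code tested on simulated data. Genes came from RefSeq, 19974 of them protein-coding. Starts and windows came from a promoter table with 15812 of these (79.2%). Chromosome 8 was not used for starts, which left 18129 WT and 29652 deletion summits. Shares at given ranks weight 10 rank classes. A summit was named by the protein-coding gene that held it or else lay nearest within 50 kb. Genes were named by fixed counts from the top of each class: 12 summits of each list alone, 8 pairs with the best ranks and 6 pairs of the greatest rank difference in each direction, 8 and 5 genes with most summits of 1 list, 3 longest lines, up to 3 and 2 genes per gene list, and 4 motif windows per class. Some of these genes are not shown. The genes near starts and further lines were added later. The genes, the 16 lists and the rule were chosen with earlier results of these data known. Start and X measures were added after seeing the data. Alternatives were other matching distances, 1-to-1 pairs, equal lengths, a −log10 q minimum of 10, lists without summits within 1 kb of IgG summits, 1 summit per 500 bp, ends of protein-coding genes, and a looser motif core. The software was matplotlib 3.10.9, pandas 2.3.3, NumPy 2.4.6 and SciPy 1.17.1 under Python 3.11.15.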

Additional observations from a re-analysis of the deposited data

Results flagged for a closer look

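The IgG lists are outside the comparison of CTCF summits. Inside ORC2 the IgG list of the deletion cells had 2 summits where that of WT had 0. Both lists stand for 2 libraries without a replicate spread, and the part of this signal in the 3 deletion-only CTCF summits of the gene was not tested.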

How the results depend on the processing

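Over 23 results and 124 alternative values, 71 stayed within the interval or within 1.5 times the main count and 53 moved. These are single shares, counts, distances and rho, with no sign to change. Comparisons between them did turn: the share near a start was 12% of deletion-only and 11.5% of matched deletion summits in the full lists, with overlapping intervals, and was lower in deletion-only than in matched summits at equal lengths and with a −log10 q minimum of 10. The median distance of deletion-only summits was below that of WT-only summits at equal lengths and above it in the other settings run. The looser motif core raised the share of all windows from 2.42% to 10.6%, and matched windows held it more often than the others with both cores. At 100 bp, 60.6% of WT and 37.1% of deletion summits were matched and 7496 were WT-only, of which 66.5% lay below the median rank (deletion-only 66.7%). There rho was 0.64, the median distances were 15400 bp for deletion-only and 204 bp for WT-only summits, WT-only summits lay at a gene end in 20.9% and near a start in 13.9%, and the X share was 50.1%. At 1000 bp the matched shares were 90.3% and 55.6%, 90.2% of WT-only summits lay below the median rank and their median distance was 25409 bp. At equal lengths the matched shares were 74.7% for both, with 4815 WT-only and 4827 deletion-only summits, 84.7% of the WT-only ones below the median rank, a rho of 0.58 and distances of 30969 and 34055 bp. Gene ends within 1 kb then held 15.6% of deletion-only and 23.2% of WT-only summits, starts 10.6% of matched, 8.71% of deletion-only and 16.9% of WT-only, and the X share was 47%. A −log10 q minimum of 10 left 4433 WT and 12236 deletion summits, so these values rest on fewer summits: 91.7% and 33.2% matched, 370 WT-only and 8174 deletion-only, 78.1% and 64% of them below the median rank, rho 0.57, and distances of 132412 bp for deletion-only and 52196 bp for WT-only summits. Gene ends held 20.6% of matched, 16.4% of deletion-only and 19.7% of WT-only summits, starts 12.9%, 8.77% and 13.5%, and the X share was 15.6%. With ends of protein-coding genes only, the shares were 12.3%, 12.6% and 19%, against 18.9%, 18.3% and 25.6% with all genes. The cause of these moves was not tested. No paired analysis was possible because the lists carry no replicate numbers, and no library could be left out for the same reason. Unknown depth limits every count of summits in 1 list alone.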
